A study of Homo sapiens with 12 samples.

Results

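The group described here is the machinery that shortens, decaps and degrades cytoplasmic and nuclear mRNA: 47 genes of the CCR4-NOT, PAN2-PAN3, decapping, RNA exosome and nonsense-mediated decay (NMD) systems, with their poly(A)-binding partners. They were chosen by gene symbol for their known roles, with earlier results of these data known. All 47 were found among the 57704 genes of the count table. The abundance filter left 45 of them for testing, among 13820 genes in all. EDC4, a scaffold of the decapping complex, had 0 to 5 counts in a library and was not tested. SMG8, a regulator of the NMD kinase SMG1, had 3 to 32 counts and was not tested either. Each shares exon bases with another gene on the same strand that had no counts, EDC4 1311 bases with AC040162.3 and SMG8 422 bases with AC099850.2, and the part of these overlaps was not tested.

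The libraries are QuantSeq 3′ tag libraries, which count polyadenylated 3′ ends, from HEK293, an embryonic kidney line of human origin. The cells carried a stably integrated intron-DARP-EGFP reporter, which both groups share. In the SUPT4H1 siRNA group (6 libraries), pooled siRNAs against SUPT4H1, a subunit of the elongation factor DSIF, were transfected at 100 nM, and lysates of 1000000 cells, taken at 72 hours, received ERCC mix 2. In the scrambled siRNA group (6 libraries), scrambled siRNAs were used in the same way and lysates received ERCC mix 1. The 6 transfections of each group came from 1 culture, so the p-values reflect how separate transfections of that culture vary. ERCC standards are synthetic RNAs added in fixed amounts. Because the mix differs with the group, an effect of the mix and of the siRNA cannot be told apart in spike-in-scaled values.

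Decay of most human mRNAs begins with removal of the poly(A) tail, first by PAN2-PAN3 and then by the CCR4-NOT complex, whose deadenylases are CNOT6 or CNOT6L and CNOT7 or CNOT8. The deadenylated mRNA is decapped by DCP2 with its activators and digested from the 5′ end by XRN1, or digested from the 3′ end by the RNA exosome, a barrel of non-catalytic subunits joined by a DIS3-family or EXOSC10 nuclease. NMD, which acts on mRNAs that terminate translation too early, uses the helicase UPF1, its partners UPF2 and UPF3 and the SMG proteins.

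SUPT4H1 stood at 20.8 ± 1.79 CPM (SD, n = 6) in SUPT4H1 siRNA libraries and at 184 ± 8.95 CPM in scrambled libraries (SD, n = 6), where CPM are counts per 1000000 endogenous counts after TMM scaling. Endogenous counts summed to between 6591194 and 11366971 per SUPT4H1 siRNA library and between 7337033 and 20269171 per scrambled library, with RNA integrity numbers of 9.6 to 10. SUPT4H1 siRNA replicate 6, the library with the fewest counts, lay apart on the second principal component (17.4% of the variance), at −35.1 against 3.77 to 18.1 for the other libraries of its group. All 7 HEK293 markers listed passed the filter, and their summed level was 1329 to 1464 CPM in SUPT4H1 siRNA libraries and 1640 to 2168 CPM in scrambled libraries. NEFL made up most of that sum (935 ± 46.8 CPM with SUPT4H1 siRNA and 1432 ± 206 CPM with scrambled siRNA, SD, n = 6 each). By edgeR 2 of the 7 fell (NEFL and KRT18), VIM rose (315 ± 33.9 CPM with SUPT4H1 siRNA and 260 ± 20.3 CPM with scrambled siRNA) and 4 did not pass. Among the markers that did not pass, NES, PAX2 and NEFM were near the floor. They averaged 2.40, 0.996 and 1.13 CPM with SUPT4H1 siRNA and 3.30, 1.59 and 1.55 CPM with scrambled siRNA. Of 10 markers of other cell types, COL1A1 alone was left by the abundance filter, and PTPRC, CDH5 and INS were at 0. COL1A1 averaged 4.57 CPM with SUPT4H1 siRNA and 6.36 CPM with scrambled siRNA, above NES, PAX2 and NEFM. The part of other cell types in the results below was not tested. The 47 genes together took 0.295% ± 0.0304 of endogenous counts with SUPT4H1 siRNA and 0.298% ± 0.00933 with scrambled siRNA (SD, n = 6 each).

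Relative to all other mRNAs, decay factor genes changed by modest steps in both directions. Of the 45 tested genes, 6 rose (TOB1, XRN1, TOB2, EXOSC7, CNOT11 and DIS3), 12 fell (EXOSC8, UPF3B, EXOSC2, DIS3L, CNOT6L, SMG9, EXOSC3, UPF3A, CNOT8, CNOT1, UPF1 and CNOT7) and 27 did not pass an adjusted p of 0.05 (edgeR quasi-likelihood test, Benjamini-Hochberg over all tested genes). These 18 are 40.0% of those tested, beside 40.1% of all genes tested (20.3% higher and 19.8% lower), so the share called was near that of the transcriptome. The median relative log2 fold change of the 45 was 0.00, as it was over all tested genes, and none of the called genes changed by 2-fold. For 10 of the 45, no SUPT4H1 siRNA library overlapped a scrambled one (22.2%), beside 20.2% of all genes tested. They were TOB1, XRN1, TOB2, EXOSC7 and CNOT11 on the higher side (10.3% of all genes) and EXOSC8, EXOSC2, CNOT6L, UPF1 and CNOT7 on the lower side (9.91%).

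**Figure D1:**
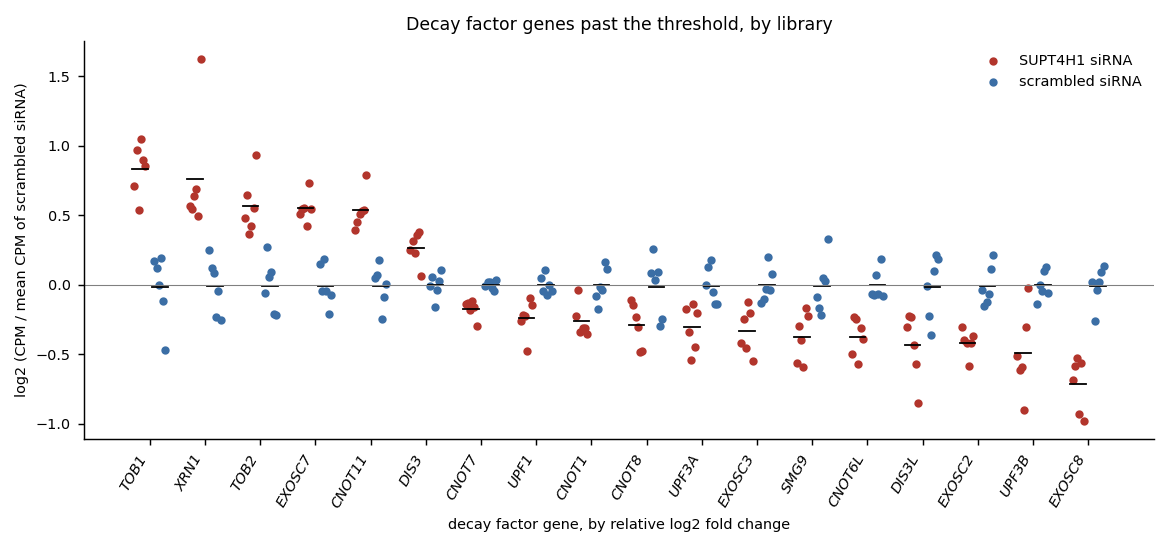
The 18 decay factor genes with an adjusted p under 0.05, drawn as log2 of CPM over the mean CPM of the scrambled libraries (vertical axis), with 1 point per library in SUPT4H1 siRNA (red, left) and scrambled siRNA (blue, right) and bars at the mean of the plotted values. Higher genes run from TOB1 to DIS3 and lower genes from CNOT7 to EXOSC8, and 1 XRN1 library, SUPT4H1 siRNA replicate 6, sits far above the rest.

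The RNA exosome genes changed in both directions: 2 of its 12 genes rose (16.7%) and 4 fell (33.3%), beside 20.3% higher and 19.8% lower among all tested genes. EXOSC7 and EXOSC8 encode ring subunits of the barrel, DIS3 the nuclease of the nuclear exosome and DIS3L that of the cytoplasmic one. Their promoters are shown for the ring genes that changed most in each direction and for the nuclease pair whose balance is compared below. The sequences are 300 bases in RefSeq (GRCh38.p14), from 250 bases before the annotated transcription start to 50 bases after it, written 5′ to 3′ on the strand of the gene, with capitals for matches to the 3 motifs reported:
EXOSC8 promoter, chr13:37000536-37000835 (plus strand): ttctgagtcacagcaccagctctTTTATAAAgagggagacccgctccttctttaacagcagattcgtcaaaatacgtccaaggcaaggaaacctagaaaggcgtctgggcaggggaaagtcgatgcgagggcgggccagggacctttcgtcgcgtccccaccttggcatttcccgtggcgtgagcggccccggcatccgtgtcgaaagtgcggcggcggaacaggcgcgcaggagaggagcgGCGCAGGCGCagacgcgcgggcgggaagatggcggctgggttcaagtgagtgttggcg
EXOSC7 promoter, chr3:44975994-44976293 (plus strand): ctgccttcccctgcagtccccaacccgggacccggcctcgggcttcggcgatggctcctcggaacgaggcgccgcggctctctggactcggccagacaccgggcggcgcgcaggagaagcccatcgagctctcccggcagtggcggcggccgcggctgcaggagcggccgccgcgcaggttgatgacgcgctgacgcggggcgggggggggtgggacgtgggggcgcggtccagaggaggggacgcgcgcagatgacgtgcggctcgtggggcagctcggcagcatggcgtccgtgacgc
DIS3 promoter, chr13:72781851-72782150 (minus strand): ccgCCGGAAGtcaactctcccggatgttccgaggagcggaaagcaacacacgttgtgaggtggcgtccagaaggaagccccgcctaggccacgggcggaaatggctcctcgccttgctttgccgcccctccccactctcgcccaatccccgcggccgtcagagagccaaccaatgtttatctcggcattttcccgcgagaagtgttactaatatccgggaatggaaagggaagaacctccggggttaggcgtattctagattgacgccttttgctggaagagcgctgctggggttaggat
DIS3L promoter, chr15:66293318-66293617 (plus strand): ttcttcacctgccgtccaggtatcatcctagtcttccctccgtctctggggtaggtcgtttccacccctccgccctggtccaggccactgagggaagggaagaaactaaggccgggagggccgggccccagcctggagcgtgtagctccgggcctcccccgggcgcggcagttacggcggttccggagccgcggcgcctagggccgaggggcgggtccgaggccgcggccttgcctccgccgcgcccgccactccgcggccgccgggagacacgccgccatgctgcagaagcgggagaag

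These motifs were read on both strands. The NRF1 motif, named for a regulator of nuclear genes for respiration, was taken as GCGCA followed after any 1 base by GCGC. For ETS factors, a family that binds many housekeeping promoters, the letters CCGGAAG were searched. The TATA box, found upstream of some regulated genes, was taken as TATAAA. EXOSC8 held the NRF1 letters, and towards its far end the TATA letters (the TATA capitals are overlapping matches on both strands). DIS3 held the ETS letters at its far end, and EXOSC7 and DIS3L held none of these 3. The far end is the upstream one, away from the annotated start. In 40 of the 47 genes with a RefSeq promoter, NRF1 letters occurred in 10 (25.0%), beside 12% of 9710 promoters of tested genes and 6.28% of all 27305. The ETS letters occurred in 15.0% of the 40, beside 19.4% of tested and 10.7% of all promoters. TATA letters occurred in 2.5%, beside 5.09% of tested and 12% of all promoters. Only 1 promoter was read per gene. For SMG6, CNOT10 and SMG5, among others, it does not lie at the start of the gene in GENCODE 29. The lack of these letters in those 3 does not describe that start. Of the promoters printed above, those of EXOSC8, EXOSC7 and DIS3L begin past the GENCODE 29 starts of the genes (36998816, 44975241 and 66293217). Their matches, or the lack of them, do not describe those starts either.

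Among the 10 lower genes with a promoter, NRF1 letters stood in 4 (EXOSC8, EXOSC2, UPF1 and SMG9). Among the 6 higher genes they stood in 0, and among 23 genes not called in 6. The shares among all higher and all lower tested genes were not computed. A link of these letters with the direction of change was not tested. A match describes letters and not binding. EXOSC8 has its NRF1 match at −8 from the start annotated in RefSeq (first base of the match). In the other 3 genes, the matches nearest the RefSeq start begin at 5 in EXOSC2, −33 in UPF1 and 26 in SMG9. In genes not called, the nearest matches begin at −8 in DCPS, −11 in PATL1, −20 in CNOT4, −36 in PARN, −55 in EXOSC5 and −110 in UPF2. A match near the start was thus not particular to the lower genes. The sites of EXOSC2, UPF1 and SMG9 are shown in capitals for comparison with the EXOSC8 promoter, with 10 bases on each side:
EXOSC2 site, chr9:130693755-130693784 (plus strand): cgactgagctGCGCCTGCGCaactcattgg
UPF1 site, chr19:18831916-18831945 (plus strand): cgtcgggctcGCGCACGCGCacggcgacgg
SMG9 site, chr19:43754917-43754946 (minus strand): ccagccctcaGCGCATGCGCaggacgagtc

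EXOSC8 (Rrp43 in yeast), which pairs with EXOSC5 in the ring, was the most reduced gene of the 45. Its lowest, median and highest levels were 52.7, 67.2 and 72.1 CPM in SUPT4H1 siRNA libraries and 86.8, 106 and 114 CPM in scrambled libraries. Every SUPT4H1 siRNA library lay below every scrambled one. Its relative change was −0.70 on the log2 scale (SE 0.09, edgeR adjusted p = 4.59e-06), or 61.7% of the scrambled level. EXOSC8 (chromosome 13 from 36998816 to 37009613, GENCODE 29, GRCh38, plus strand) shares 302 exon bases with SUPT20H on the opposite strand, and the strand setting of the counting is not given in the sources used here.

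EXOSC7 (Rrp42 in yeast), which pairs with EXOSC6, moved the other way. Its lowest, median and highest levels were 54.2, 59.0 and 67.1 CPM with SUPT4H1 siRNA and 34.9, 39.2 and 45.8 CPM with scrambled siRNA, again with no overlap. The log2 fold change was 0.55 (SE 0.08, adjusted p = 2.44e-05, edgeR). EXOSC7 lies on chromosome 3 from 44975241 to 45036066 and shares 604 exon bases with CLEC3B on the same strand, which had no counts.

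EXOSC2 (Rrp4), a cap subunit that helps to bind RNA at the mouth of the barrel, fell without overlap. Lowest, median and highest levels were 52.8, 59.7 and 64.3 CPM with SUPT4H1 siRNA and 71.5, 76.6 and 92.1 CPM with scrambled siRNA (log2 fold change −0.41, SE 0.08, edgeR adjusted p = 0.000332). The cap subunit EXOSC3 (Rrp40) averaged 30.9 ± 3.5 CPM with SUPT4H1 siRNA and 38.7 ± 3.4 CPM with scrambled siRNA (SD, n = 6 each). Its change was −0.32 on the log2 scale (edgeR adjusted p = 0.00849), and the highest SUPT4H1 siRNA library reached the lowest scrambled one. EXOSC1, the remaining cap subunit, did not pass (−0.19, adjusted p = 0.198).

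DIS3 averaged 54.0 ± 4.24 CPM with SUPT4H1 siRNA and 44.7 ± 2.76 CPM with scrambled siRNA (SD, n = 6 each; log2 fold change 0.27, edgeR adjusted p = 0.0088). DIS3L averaged 32.3 ± 5.07 CPM with SUPT4H1 siRNA and 43.2 ± 6.68 CPM with scrambled siRNA (log2 fold change −0.41, adjusted p = 0.00785). Libraries of the groups overlapped for each gene taken singly. The ring genes EXOSC4, EXOSC5, EXOSC6 and EXOSC9, which include the pairing partners of EXOSC7 and EXOSC8, and the nuclear nuclease EXOSC10 did not pass, with log2 fold changes of −0.21 to 0.04. EXOSC6, for example, averaged 139 ± 12.9 CPM with SUPT4H1 siRNA and 139 ± 10.3 CPM with scrambled siRNA (SD, n = 6 each).

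**Figure D2:**
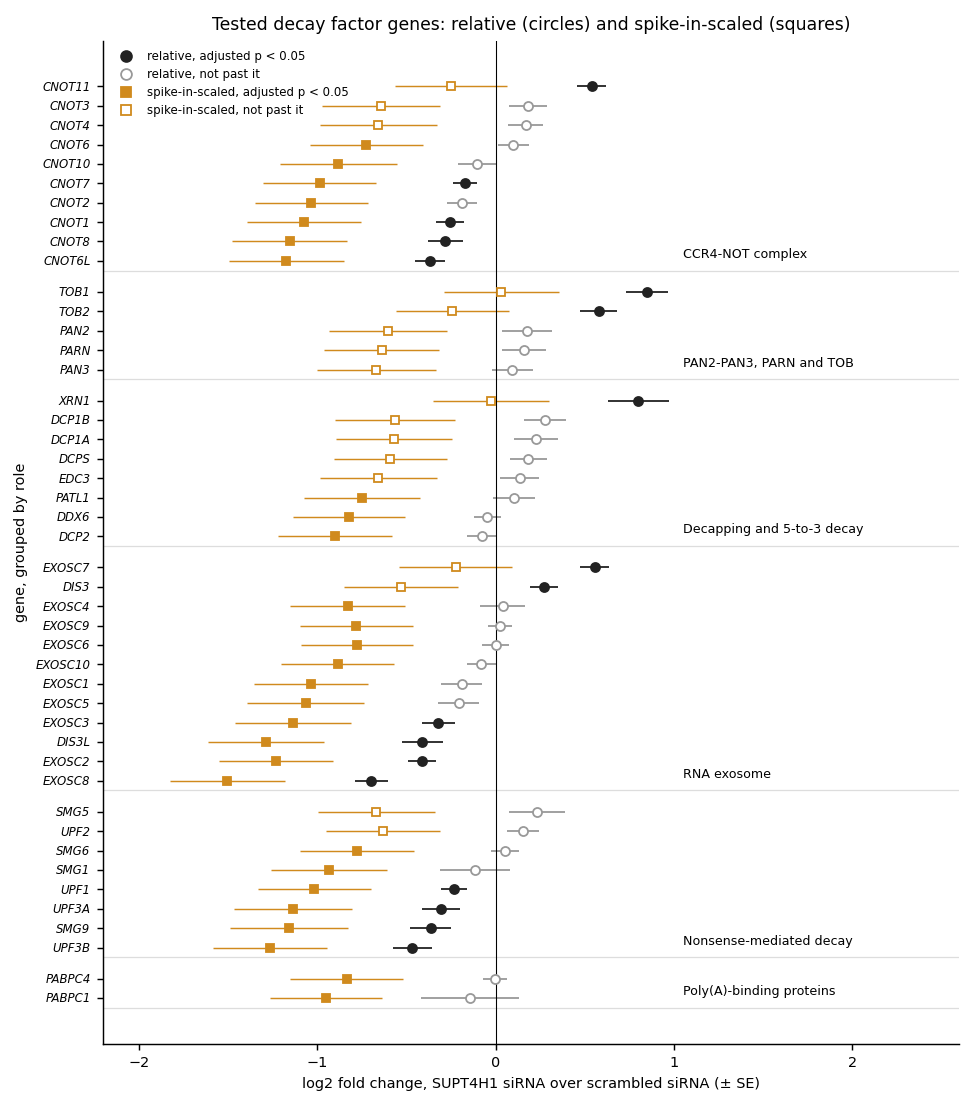
Log2 fold change of SUPT4H1 siRNA over scrambled siRNA (horizontal axis, ± SE) for the 45 tested genes by role, as relative abundance (circles) and after spike-in scaling (squares), filled where the adjusted p is under 0.05. Circles spread to both sides of 0 in the exosome and CCR4-NOT groups, while the squares lie at 0.03 or below.

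Of the 5 deadenylation factors outside CCR4-NOT, 2 rose (40%, beside 20.3% of all tested genes). TOB1 and TOB2, anti-proliferative proteins that bridge CNOT7 or CNOT8 to PABPC1, were these 2. TOB1 had lowest, median and highest levels of 25.2, 31.9 and 35.9 CPM with SUPT4H1 siRNA and 12.5, 18.1 and 19.8 CPM with scrambled siRNA. Its log2 fold change was 0.85 (SE 0.12, edgeR adjusted p = 9e-06), the highest of the 45. TOB2 had levels of 62.5, 69.4 and 92.8 CPM with SUPT4H1 siRNA and 41.7, 48.5 and 58.7 CPM with scrambled siRNA. It changed by 0.58 (SE 0.10, adjusted p = 0.000143, edgeR). Neither gene's libraries overlapped between the groups. A TOB2 pseudogene held counts equal to 5.18% of those of TOB2, and TOB1 shares exon bases with the opposite-strand TOB1-AS1. PAN2 and PAN3, the first-acting deadenylase, and the nuclease PARN did not pass, with log2 fold changes of 0.09 to 0.18.

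In the CCR4-NOT complex, 1 of 10 genes rose (10%) and 4 fell (40%), beside 20.3% higher and 19.8% lower among all tested genes. CNOT11, which with CNOT10 docks on the scaffold CNOT1, had lowest, median and highest levels of 127, 138 and 167 CPM with SUPT4H1 siRNA and 81.3, 98.4 and 109 CPM with scrambled siRNA. The libraries did not overlap, and the log2 fold change was 0.54 (SE 0.08, edgeR adjusted p = 2.91e-05). CNOT10, its partner, averaged 17.9 ± 2.2 CPM with SUPT4H1 siRNA and 19.2 ± 1.84 CPM with scrambled siRNA and did not pass (adjusted p = 0.465).

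The deadenylase gene CNOT6L averaged 34.8 ± 3.24 CPM with SUPT4H1 siRNA and 45.0 ± 3.58 CPM with scrambled siRNA (SD, n = 6 each), with no overlap. Its log2 fold change was −0.37 (SE 0.09, adjusted p = 0.00183, edgeR). CNOT1 averaged 76.4 ± 6.68 CPM with SUPT4H1 siRNA and 91.3 ± 7.93 CPM with scrambled siRNA (−0.26, adjusted p = 0.0132). CNOT8 averaged 50.7 ± 5.61 CPM with SUPT4H1 siRNA and 61.8 ± 8.99 CPM with scrambled siRNA (−0.28, adjusted p = 0.0286). CNOT7, the close relative of CNOT8, averaged 58.1 ± 2.6 CPM with SUPT4H1 siRNA and 65.4 ± 1.36 CPM with scrambled siRNA, with no overlap (−0.17, adjusted p = 0.0486). CNOT7 passed in 8 of 20 settings and CNOT8 in 14, so both calls are fragile. The 20 leave out a minimum change of 1.5-fold, with which none of the 45 genes passed. The scaffold partners CNOT2 and CNOT3, the ubiquitin ligase CNOT4 and the deadenylase CNOT6 did not pass (−0.19 to 0.18).

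Decapping and 5′ decay showed 1 rise among 8 tested genes and 0 falls (0 at an unadjusted p under 0.05 by edgeR, and 0 by DESeq2 and limma-voom). The share higher was 12.5%, beside 20.3% higher and 19.8% lower among all tested genes. XRN1, the cytoplasmic 5′-to-3′ exonuclease, stood at 18.5 to 21.2 CPM in 5 SUPT4H1 siRNA libraries and at 40.7 CPM in replicate 6, against lowest, median and highest levels of 11.1, 13.4 and 15.7 CPM with scrambled siRNA. The libraries did not overlap, and the log2 fold change was 0.80 (SE 0.17, edgeR adjusted p = 0.00103). Without replicate 6 the change was 0.55 (edgeR adjusted p = 0.000255). The catalytic subunit DCP2, its activators DCP1A, DCP1B, EDC3, DDX6 and PATL1 and the scavenger enzyme DCPS did not pass, at −0.08 to 0.28. Without replicate 6, DCP1A (0.29, adjusted p = 0.0257) and DCP1B (0.31, adjusted p = 0.034) passed. With all libraries, DCP1B also passed by limma-voom, and by edgeR with library totals in place of TMM.

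The NMD genes included 4 that fell and 0 that rose among 8 tested (0 at an unadjusted p under 0.05 by edgeR, and 0 by DESeq2 and limma-voom). The share lower was 50% in this group of 8, beside 19.8% lower and 20.3% higher among all tested genes. UPF3B, which links UPF2 to the exon junction complex, had lowest, median and highest levels of 69.8, 88.8 and 128 CPM with SUPT4H1 siRNA and 119, 128 and 142 CPM with scrambled siRNA. Replicate 6, at 128 CPM, was the SUPT4H1 siRNA library that reached into the scrambled range. The log2 fold change was −0.47 (SE 0.11, edgeR adjusted p = 0.00172), and −0.60 without replicate 6.

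UPF1, the helicase at the centre of NMD, averaged 114 ± 9.98 CPM with SUPT4H1 siRNA and 134 ± 6.56 CPM with scrambled siRNA (SD, n = 6 each). Its libraries did not overlap (log2 fold change −0.23, adjusted p = 0.015, edgeR). SMG9, which with SMG8 restrains the kinase SMG1, averaged 15.3 ± 1.84 CPM with SUPT4H1 siRNA and 19.7 ± 2.82 CPM with scrambled siRNA (−0.36, adjusted p = 0.0155). UPF3A, the paralog of UPF3B, averaged 14.4 ± 1.59 CPM with SUPT4H1 siRNA and 17.8 ± 1.66 CPM with scrambled siRNA (−0.30, adjusted p = 0.0276). UPF3A passed in 14 of 20 settings and SMG9 in 19, and pseudogenes of UPF3A held counts equal to 11.6% of those of UPF3A. UPF2, SMG5 (which recruits decay enzymes) and the endonuclease SMG6 did not pass.

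Whether several further genes passed depended on SUPT4H1 siRNA replicate 6. SMG1 stood at 40.0 CPM there, against 15.1 to 20.7 CPM in the other SUPT4H1 siRNA libraries and 20.4 to 27.8 CPM in scrambled libraries. With all libraries SMG1 did not pass (−0.12, adjusted p = 0.672), and without replicate 6 it was lower (−0.40, adjusted p = 0.00417, edgeR). PABPC1, the main cytoplasmic poly(A)-binding protein, stood at 743 CPM in that library, against 243 to 372 CPM in the others of its group and 330 to 582 CPM in scrambled libraries. It did not pass with all libraries (−0.14, adjusted p = 0.711) and was lower without replicate 6 (−0.48, adjusted p = 0.0299). SMG5 was 10.1 CPM in replicate 6 and 19.3 to 23.8 CPM in the others, and passed as higher without it (0.33, adjusted p = 0.0189). Pseudogenes of SMG1 held counts equal to 7.27% of its own. PABPC4 averaged 119 ± 6.15 CPM with SUPT4H1 siRNA and 120 ± 6.13 CPM with scrambled siRNA (SD, n = 6 each) and did not pass. Without replicate 6, 9 of the tested decay factor genes were higher and 14 lower. Over all genes, leaving out 1 library at a time gave 2541 to 2724 higher and 2479 to 3177 lower.

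**Figure D3:**
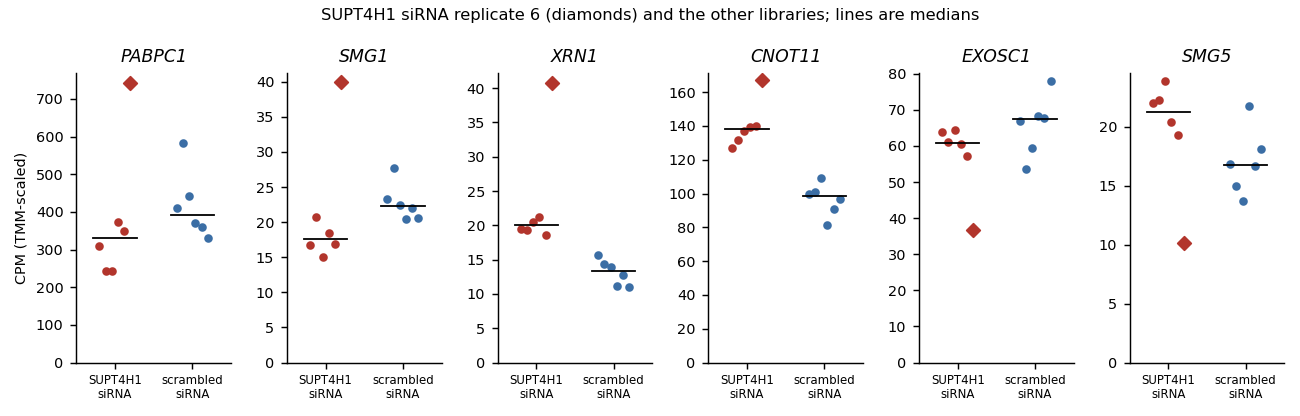
CPM (vertical axes from 0) in each library for PABPC1, SMG1, XRN1, CNOT11, EXOSC1 and SMG5, with SUPT4H1 siRNA on the left, scrambled siRNA on the right, lines at the medians and SUPT4H1 siRNA replicate 6 as a diamond. The diamond lies above the other SUPT4H1 siRNA libraries for PABPC1, SMG1, XRN1 and CNOT11 and below them for EXOSC1 and SMG5.

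Ratios of related genes within a library do not depend on how libraries are scaled, and 7 paralog pairs were compared on the log2 ratio of counts. The balance of the exosome nucleases differed between the groups. The DIS3 to DIS3L ratio was 0.51 to 1.00 in SUPT4H1 siRNA libraries and −0.14 to 0.34 in scrambled libraries, with no overlap. The difference was 0.69 (SE 0.12, exact two-sided permutation test, p = 0.0022, the smallest that 924 splits allow, adjusted p = 0.0076 over 7 pairs). CNOT6 to CNOT6L was 0.95 to 1.26 in SUPT4H1 siRNA libraries and 0.23 to 0.82 in scrambled libraries. That difference was 0.47 (SE 0.10, exact permutation p = 0.0022, adjusted p = 0.0076). In each of these pairs the ratio was higher in all 6 SUPT4H1 siRNA libraries than in all 6 scrambled libraries. Among single tested genes, 20.2% had no overlap between the groups. How often ratios of other gene pairs separate them was not tested. The pairs were chosen with earlier results of these data known. Their ratios use the same counts as the single-gene tests, so these p-values are not separate support for those calls.

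Differences in the other 5 pairs did not pass. The ratio TOB1 over TOB2 differed by 0.28 (SE 0.12, exact permutation, adjusted p = 0.10), and the pair passed without SUPT4H1 siRNA replicate 6 (adjusted p = 0.0202). CNOT7 over CNOT8 differed by 0.11 (SE 0.10), UPF3A over UPF3B by 0.19 (SE 0.16), DCP1A over DCP1B by −0.06 (SE 0.12) and PABPC1 over PABPC4 by −0.23 (SE 0.28), with adjusted p-values of 0.41 to 0.65 by the exact permutation test. DIS3 shares 1180 exon bases with BORA on the opposite strand, whose effect on its count was not tested, while CNOT6 and CNOT6L have no such overlap.

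**Figure D4:**
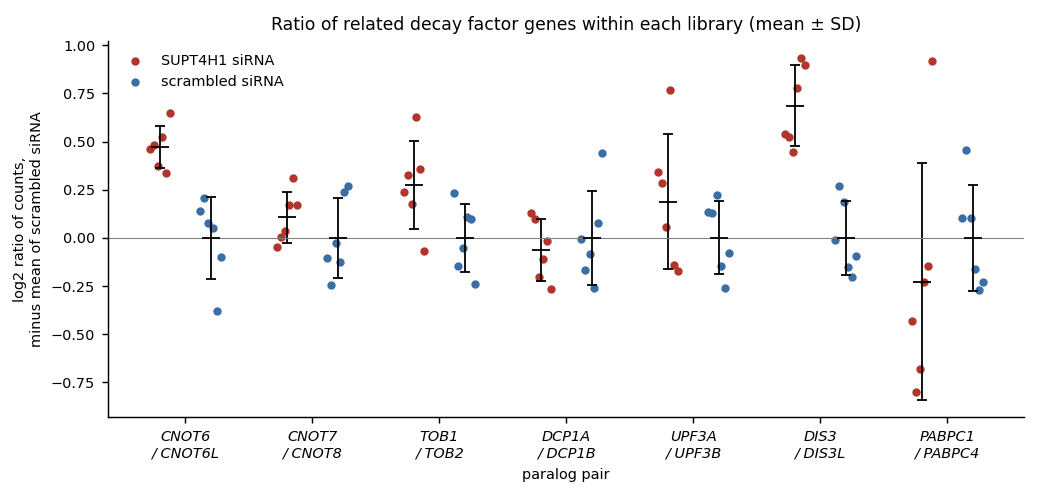
Log2 ratio of the counts of 2 related genes in each library, minus the mean of the scrambled libraries (vertical axis), for 7 pairs, with SUPT4H1 siRNA in red on the left, scrambled siRNA in blue on the right, and bars at mean ± SD. For CNOT6 over CNOT6L and DIS3 over DIS3L every red point lies above every blue one.

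Relative to the ERCC standards, most decay factor genes were lower and none was higher. Endogenous counts over the counts of subgroup B standards, which have equal amounts in both mixes, were 8.23 ± 0.567 on the log2 scale with SUPT4H1 siRNA and 9.16 ± 0.322 with scrambled siRNA (SD, n = 6 each). The difference of −0.93 leaves 52.6% of the scrambled level (exact two-sided permutation test, p = 0.013). The labels give the same 1000000 cells for every lysate, and the counts hold no measure of cell number, so from these bulk values alone fewer cells and less RNA per cell cannot be told apart. Of the 45 genes, 28 (62.2%) were lower by edgeR, beside 59.0% of all tested genes, and 0 were higher, beside 0.304% of all genes. By an unadjusted p under 0.05, 0 were higher as well, and no other tool was run on this scale. The median log2 fold change was −0.82 for the 45 and −0.82 for all tested genes. With subgroup C standards alone in place of B, 4 of the 45 and 2227 of all tested genes were lower. Without SUPT4H1 siRNA replicate 5, 43 of the 45 were lower. Over all genes, leaving out 1 library at a time gave 5618 to 12189 lower.

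The exosome had 10 of 12 genes lower on this scale, CCR4-NOT 7 of 10, NMD 6 of 8, decapping 3 of 8, the poly(A)-binding proteins both, and PAN2, PAN3, PARN, TOB1 and TOB2 none (2 at an unadjusted p under 0.05). Beside these small groups, 59.0% of all tested genes were lower. EXOSC8 had the lowest value, −1.50 (SE 0.32, edgeR adjusted p = 8.31e-05), or 35.3% of the scrambled level. TOB1 (0.03, SE 0.32) and XRN1 (−0.03, SE 0.33) lay near 0, which does not show that their amount was the same. The exosome genes not called were EXOSC7 (−0.22, adjusted p = 0.521) and DIS3 (−0.53, adjusted p = 0.13).

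Partners and targets of the decay machinery were read from lists of genes with established roles, which were also chosen with earlier results of these data known. Of the exon junction complex and NMD partners, 7 of 13 tested genes rose and 1 fell, beside 20.3% higher and 19.8% lower among all tested genes, with a median log2 fold change of 0.24, beside 0.00 over all tested genes. ETF1, the release factor that recognises stop codons, averaged 155 ± 17.3 CPM with SUPT4H1 siRNA and 106 ± 6.06 CPM with scrambled siRNA (0.54, edgeR adjusted p = 1.53e-05). MAGOH, a core subunit of the exon junction complex, averaged 323 ± 40.9 CPM with SUPT4H1 siRNA and 211 ± 40.2 CPM with scrambled siRNA (0.62, adjusted p = 0.00018). The cap-binding subunit NCBP1 rose by 0.39 (adjusted p = 0.00169), CASC3 of the exon junction complex by 0.48 (adjusted p = 0.00232), and NBAS was the gene that fell (−0.44, adjusted p = 0.00403). On the spike-in scale, 5 of the 13 were lower, beside 59.0% of all tested genes, and 0 higher by edgeR (0 at an unadjusted p under 0.05).

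Deadenylation and poly(A) tail partners went both ways, with 4 of 21 higher, 6 lower and a median of −0.02 (20.3% higher and 19.8% lower among all tested genes). BTG2, a TOB relative that activates CCR4-NOT deadenylation, averaged 122 ± 23 CPM with SUPT4H1 siRNA and 63.9 ± 6.73 CPM with scrambled siRNA (0.94, edgeR adjusted p = 1.87e-06). ANGEL2, a member of the CCR4 nuclease family, averaged 28 ± 5.41 CPM with SUPT4H1 siRNA and 42.5 ± 2.25 CPM with scrambled siRNA (−0.61, adjusted p = 9.02e-05). NANOS1 (0.54) and SAMD4B (0.41), RNA-binding proteins that recruit CCR4-NOT, also rose. The other BTG genes of the list, BTG3 (−0.33, edgeR adjusted p = 0.000821) and BTG1 (−0.26, adjusted p = 0.0248), fell.

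Among the LSM ring and other 5′ end factors, 3 of 15 rose (PNRC1, LSM1 and NUDT16) and 0 fell by edgeR, with 2 lower at an unadjusted p under 0.05 and 1 lower by DESeq2 and by limma-voom. The 20% higher was near the 20.3% of all tested genes, of which 19.8% were lower. PNRC1, a decapping-associated protein, averaged 45.2 ± 1.93 CPM with SUPT4H1 siRNA and 25.2 ± 3.5 CPM with scrambled siRNA (0.85, edgeR adjusted p = 5.59e-07). LSM1, the subunit that marks the cytoplasmic LSM ring, averaged 36.5 ± 1.18 CPM with SUPT4H1 siRNA and 29.3 ± 2.2 CPM with scrambled siRNA (0.32, adjusted p = 0.00363). Of the exosome cofactors, 3 of 15 fell (PAPD7, HBS1L and C1D) and 0 rose by edgeR, DESeq2 or limma-voom (2 higher at an unadjusted p under 0.05), with a median of −0.01. Their 20% lower was near the 19.8% of all tested genes. PAPD7, a non-canonical poly(A) polymerase, averaged 41.7 ± 5.06 CPM with SUPT4H1 siRNA and 58.8 ± 6.46 CPM with scrambled siRNA (−0.49, edgeR adjusted p = 0.000333).

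Transcripts described in human cells as targets of NMD were mostly lower: 10 of 13 fell and 1 rose, beside 19.8% lower and 20.3% higher among all tested genes, and the median relative change was −0.78 on the log2 scale. ATF4 averaged 440 ± 49.1 CPM with SUPT4H1 siRNA and 1088 ± 72.9 CPM with scrambled siRNA (−1.30, edgeR adjusted p = 3.76e-10). ZFAS1, a non-coding host of small nucleolar RNAs, averaged 146 ± 28.8 CPM with SUPT4H1 siRNA and 367 ± 36.9 CPM with scrambled siRNA (−1.32, adjusted p = 3.28e-08). SNHG15, of the same kind, fell by 1.15 on the log2 scale (adjusted p = 1.35e-08). GADD45B averaged 77.3 ± 10.9 CPM with SUPT4H1 siRNA and 35.6 ± 4.96 CPM with scrambled siRNA (1.11, adjusted p = 4.36e-08) and was the gene that rose. The list also holds stress response genes (ATF4, ATF3 and DDIT3) and small nucleolar RNA hosts, so its values do not measure NMD activity by themselves.

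**Figure D5:**
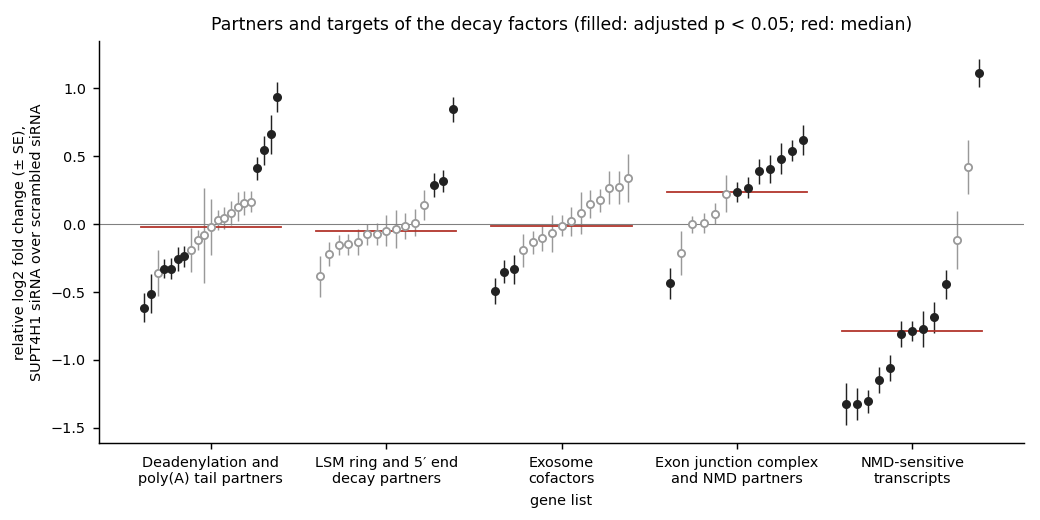
Relative log2 fold change of SUPT4H1 siRNA over scrambled siRNA (vertical axis, ± SE) for each tested gene of 5 lists, sorted within a list, filled where the adjusted p is under 0.05, with the median in red. The medians are −0.02, −0.05, −0.01 and 0.24 for the partner lists and −0.78 for the NMD-sensitive transcripts.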

How the data were processed

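The 12 libraries were made with a QuantSeq 3′ forward kit from 200 ng of RNA each, per the labels' protocols. The authors deposited whole-number counts per gene, with 92 ERCC standards and 1 row named GFP kept out of library sizes. Per the submitters' processing notes, STAR (no version given), FastQC 0.11.5, MultiQC and R 3.4.3 were used with GRCh38.p10. For the counting tool, its annotation and its use of strand, the sources used here give nothing. Counting error is smallest in the deeper libraries.

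Counts were tested with edgeR 4.0.16 (robust quasi-likelihood, R 4.3.3), SUPT4H1 siRNA against scrambled siRNA, after the default filterByExpr filter, with Benjamini-Hochberg adjustment over 13820 genes. Relative abundance used TMM over endogenous genes. Spike-in-scaled abundance used the summed counts of ERCC subgroup B, whose membership rests on general knowledge, with no table from the maker. Paralog log2 ratios (0.5 added to each count) were compared by exact permutation over 924 splits. DESeq2 1.42.0, limma-voom (limma 3.58.1), other scalings and filters, the replicate number as a block and leaving out each library were alternatives.

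The members, lists and pairs were chosen with earlier results of these data known. All called members are named, the 8 lowest by adjusted p with the range of their libraries, and up to 4 called genes of each list by adjusted p. NBAS, BTG1 and BTG3 were named after their values were seen. A gene first listed among the NMD partners is not reported here, and the list counts leave it out. Same-numbered libraries did not deviate together (correlations −0.34 to 0.08 over tested genes), so numbers were not taken as pairs. Each of the 30 within-group library pairs differed by more than sampling noise (chi-square divided by its degrees of freedom, 4.45 to 34.7). Exon overlaps came from GENCODE 29 and promoters from RefSeq (GRCh38.p14). Motifs of SP/KLF factors and YY1 were also searched and are not reported here. Of the 47 members, 23 share exon bases with a gene on the opposite strand and 8 with one on the same strand, and these counts are uncertain. EXOSC2, CNOT6L, TOB2, XRN1, UPF1, UPF3A, UPF3B and SMG9 share none. The edgeR and permutation steps were tested on simulated data. The simulated spike-in scaling held no noise of the standards, so it does not test how that noise affects the spike-in calls.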

Additional observations from a re-analysis of the deposited data

Results flagged for a closer look

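In each group of 6 libraries, a tested gene was singled out where its highest or lowest library was separated from the nearest other by over 0.625 of the whole range (Dixon's 95% limit). This held for 6 of 90 groups examined, beside 4.5 that chance would give, and all 6 concern SUPT4H1 siRNA replicate 6.

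That library stood above the others of its group for PABPC1 (743 CPM, against 243 to 372 CPM), SMG1 (40 CPM, against 15.1 to 20.7 CPM), XRN1 (40.7 CPM, against 18.5 to 21.2 CPM) and CNOT11 (167 CPM, against 127 to 140 CPM). It stood below them for EXOSC1 (36.8 CPM, against 57.2 to 64.5 CPM) and SMG5 (10.1 CPM, against 19.3 to 23.8 CPM). It was also the library with the fewest endogenous counts, 6591194, and the 47 genes took 0.353% of them, against 0.264% to 0.296% in the other SUPT4H1 siRNA libraries. The part of depth or RNA quality in these values was not tested.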

How the results depend on the processing

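With a minimum change of 1.5-fold, 0 members were higher and 0 lower by edgeR (7 higher and 13 lower at an unadjusted p under 0.05 without that minimum), beside 299 higher and 236 lower among all genes. With ERCC subgroup C alone, 4 members were lower, and 68 genes were higher and 2227 lower among all. The cause was not tested. Leaving out 1 library at a time gave 6 to 9 members higher and 9 to 14 lower on the relative scale, with 2541 to 2724 genes higher and 2479 to 3177 lower. On the spike-in scale it gave 19 to 43 members lower and 0 higher, with 26 to 60 genes higher (26 without scrambled siRNA replicate 6) and 5618 to 12189 lower. The count of 43 came without SUPT4H1 siRNA replicate 5. Of the paralog pairs, 2 to 3 passed.

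With the replicate block, 6 members were higher and 10 lower (CNOT7 and UPF3A were lost), 38 were lower on the spike-in scale, and 0 paralog pairs passed (adjusted p = 0.0729 for DIS3 over DIS3L and CNOT6 over CNOT6L, where sign flips within pairs give no exact p below 0.03125). The replicate numbers did not pair the libraries. With library totals in place of TMM, 7 members were higher and 9 lower. With TMM over the genes left by the filter, an alternative chosen after seeing the data, 6 were higher and 12 lower. Counts over all genes are not given here for the block and these scalings. The member counts in them are thus not set against the transcriptome. In 20 settings other than the minimum change, CNOT7 passed in 8, CNOT8 and UPF3A in 14, SMG9 in 19 and the other 14 called members in all 20. Over single members and settings, 894 of 945 relative results kept their side of the threshold, 43 lost a call and 8 gained one. Results called in neither setting count as kept even where their sign changed. On the spike-in scale these counts were 615, 78 and 27 of 720, and no called member changed sign on either scale. EDC4 and SMG8 had too few counts to test at this depth.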
